A study of Mus musculus with 11 samples.

Results

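Mitral leaflets that lack Ift88 in the Nfatc1 lineage were compared with wild-type leaflets, over 5 of the 11 mouse libraries of the study. Members were chosen by their labels: the 3 knockout libraries carry floxed Ift88 (Ift88f/f) with an NfatC1Cre allele, and the 2 wild-type libraries carry the same Cre with unmodified Ift88 (Ift88+/+). All 5 libraries therefore come from tissue with Cre, and no leaflet without it is part of the comparison. Nfatc1 is a transcription factor of the endocardium and of the endothelium that covers the valve, so a Cre driven from it deletes floxed Ift88 in those cells and their descendants and leaves it intact elsewhere in the leaflet. The age of the mice is not given in the sources used here. Nothing in the labels ties a library to an animal of its own, so p-values cover no more than the spread between these samples, which may be technical. The titles mark the 5 libraries as re-analysed, and the other 6, from a Dzip1 experiment, form a table of their own.

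Ift88 encodes a subunit of intraflagellar transport complex B, the particle that kinesin-2 carries up the ciliary axoneme. Cells without it cannot build or maintain a primary cilium, the single antenna through which cells read Hedgehog and other signals. In the developing mitral valve, cilia are found on endothelial and interstitial cells while the leaflet lays down its layers of collagen, proteoglycan and elastic fibres.

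The lines below give the 250 bases before a RefSeq start of 4 genes that were higher in every knockout library (Col1a2, Tnc, Hspg2 and Npr3) and of the lower gene with the smallest p (Rbp7). They are on build GRCm38.p6, 5′ to 3′ on the gene's own strand, and are shown because the results below turn on these genes. Capitals mark 3 motifs, each searched on both strands with overlapping matches allowed. They are the CCAAT box with exactly those letters, the TATA box (TATAAA) and the GC box (GGGCGG).
Col1a2, chr6:4505368-4505617, forward strand: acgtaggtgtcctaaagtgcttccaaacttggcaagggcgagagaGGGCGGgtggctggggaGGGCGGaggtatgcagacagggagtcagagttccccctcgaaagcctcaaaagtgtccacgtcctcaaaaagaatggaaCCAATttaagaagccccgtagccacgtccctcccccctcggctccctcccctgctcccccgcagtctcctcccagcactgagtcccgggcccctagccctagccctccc
Tnc, chr4:64047016-64047265, reverse strand: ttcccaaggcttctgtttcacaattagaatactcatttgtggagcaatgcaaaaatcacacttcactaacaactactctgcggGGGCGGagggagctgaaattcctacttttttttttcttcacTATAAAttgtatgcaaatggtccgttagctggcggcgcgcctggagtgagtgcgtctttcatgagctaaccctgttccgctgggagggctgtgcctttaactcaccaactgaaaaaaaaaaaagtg
Hspg2, chr4:137468553-137468802, forward strand: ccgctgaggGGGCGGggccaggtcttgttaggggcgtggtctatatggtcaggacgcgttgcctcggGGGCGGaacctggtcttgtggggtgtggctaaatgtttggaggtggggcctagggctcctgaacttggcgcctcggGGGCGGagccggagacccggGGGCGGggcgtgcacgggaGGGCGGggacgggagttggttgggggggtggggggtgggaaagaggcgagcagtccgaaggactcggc
Npr3, chr15:11907372-11907621, reverse strand: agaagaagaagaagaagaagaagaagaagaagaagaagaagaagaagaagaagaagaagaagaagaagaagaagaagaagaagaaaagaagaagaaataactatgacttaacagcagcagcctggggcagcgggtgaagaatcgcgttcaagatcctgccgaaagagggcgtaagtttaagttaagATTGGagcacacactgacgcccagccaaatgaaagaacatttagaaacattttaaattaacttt
Rbp7, chr4:149454969-149455218, reverse strand: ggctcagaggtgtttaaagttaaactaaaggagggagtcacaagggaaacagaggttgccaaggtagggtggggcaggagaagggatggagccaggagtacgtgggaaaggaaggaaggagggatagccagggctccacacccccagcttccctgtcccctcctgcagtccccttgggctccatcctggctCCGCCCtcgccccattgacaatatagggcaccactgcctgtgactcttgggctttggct

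A GC box lay in 4 of the 5 windows, all but that of Npr3, and no motif was in all 5. The Col1a2 window also had a CCAAT box, 109 bases before the start, and the Tnc window a TATA box, 126 bases before it. Tnc has a second RefSeq start, whose window is not printed. The TATA box lies 205 bases and the GC box 246 bases before that start. Hspg2 had 5 GC boxes. The only motif of the Npr3 window was a CCAAT box in reverse. Among 32851 mouse promoter windows of the same length, 33.8% held a CCAAT box, 12.4% a TATA box and 32.7% a GC box, and these matches describe the letters only.

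The libraries differed from each other in ways the labels do not give. Total counts were 31398065 and 53789026 in the wild type and 31358092, 40272515 and 23361414 in the knockout. Between the 2 wild-type libraries 1113 of the 14244 tested genes differed more than 10-fold, against 185 to 516 between knockout libraries and 405 to 941 between a wild-type and a knockout library. Knockout replicate 3 had no count in 251 genes that had at least 30 counts in each other library. Wild-type replicates 1 and 2 had 163 and 216 such genes, and knockout replicates 1 and 2 had 14 and 19.

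Heart muscle RNA separated the wild-type libraries. The mean log2 level of 38 cardiomyocyte genes was 9.32 in wild-type replicate 1 and 1.54 in wild-type replicate 2, while the knockout libraries lay at 8.52, 8.45 and 8.53. Summed over the list, the levels were 108912 and 418 CPM (counts scaled to TMM-normalised library size) in the wild type and 44738 to 61529 CPM in the knockout. No member was at 0 in wild-type replicate 1, and 6 were in wild-type replicate 2. In bulk tissue, fewer cells of a type and less RNA per cell cannot be told apart.

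The muscle transcripts were not of a single kind. Sln, which encodes the atrial calcium-pump regulator sarcolipin, stood at 2.85 and 0.659 CPM in the wild type, at 0 in knockout replicate 1, and at 613 and 489 CPM in knockout replicates 2 and 3. Myl7, the atrial regulatory light chain, had 556 and 10.1 CPM against 149, 5081 and 6871 CPM. Myl2, the ventricular regulatory light chain, was ordered the other way among the knockout libraries, with 8687 and 9.19 CPM against 4503, 724 and 512 CPM. Wild-type replicate 1 and knockout replicate 1 thus held mainly ventricular transcripts, knockout replicates 2 and 3 held atrial ones as well, and wild-type replicate 2 held little of either.

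Leaflet cell markers were present in every library. The mean log2 level of 35 endothelial genes was 4.41 and 6.72 in the wild type and 6.26, 6.83 and 6.20 in the knockout, lowest in wild-type replicate 1. That of 23 interstitial fibroblast genes was 5.34 and 6.34 in the wild type and 6.71, 6.94 and 6.47 in the knockout, with the knockout above both. Epicardial and mesothelial genes stood at 4.83 in knockout replicate 2, against 1.77 to 3.11 in the other libraries. Smooth muscle and pericyte genes stood at 2.71 in wild-type replicate 2, against 4.93 to 5.19 in the other libraries. Leukocyte genes ranged from 2.75 to 4.15, red cell and platelet genes from 1.53 to 3.85, melanocyte and Schwann cell genes from 2.91 to 3.66, and adipocyte genes from 1.92 to 3.36 over the 5 libraries. Knockout replicate 3 had no Xist count and Ddx3y, a Y-linked gene, at 52.1 CPM, while Ddx3y was at most 0.152 CPM elsewhere. The part of cell content and sex in the results below was not tested.

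**Figure D1:**
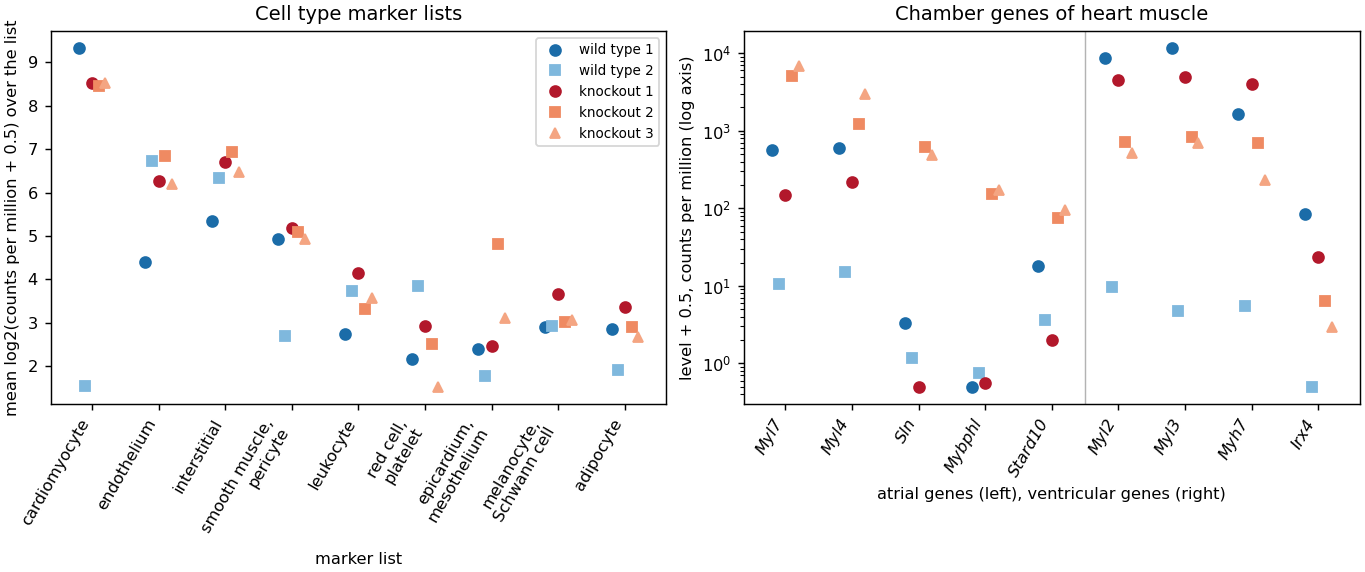
The left panel plots, for each cell type marker list (x axis), the mean log2(CPM + 0.5) in each library, and the right panel plots 5 atrial and 4 ventricular genes as CPM + 0.5 on a log axis. Points are single libraries: wild-type replicate 2 sits at 1.54 for the cardiomyocyte list, and knockout replicates 2 and 3 stand apart in Sln, Mybphl and Stard10. The chamber genes were chosen after their values were seen.

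Ift88 transcripts were at lower levels in the knockout libraries. The gene (chr14:57424062-57517936, forward strand, GRCm38) had 7.54 and 19.8 CPM in the wild type and 3.00, 3.92 and 0.409 CPM in the knockout, so every knockout library lay below both wild-type libraries. Its log2 fold change was -2.48 ± 1.13 (SE), which did not pass the threshold in edgeR (adjusted p = 0.802) or DESeq2 (adjusted p = 0.337). It was -3.05 when wild-type replicate 1 was left out and -1.62 when wild-type replicate 2 was. Reads were summed over all exons, so a deleted exon cannot be seen in these counts, and cells outside the Nfatc1 lineage keep the allele.

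The comparison asks which leaflet transcripts differ when Ift88 is removed from the Nfatc1 lineage. All 11 tested fibrillar collagen genes and all 20 tested basement membrane genes had a log2 fold change above 0, and 72 of 74 ribosomal protein genes and 29 of 31 proteasome genes had one below 0. After a correction for transcript length (below), 11 of 11 fibrillar collagen genes and 16 of 20 basement membrane genes were above 0. So were 7 of 74 ribosomal protein genes and 5 of 31 proteasome genes, against 6170 of 14126 genes in all. These counts are descriptions, as no list was tested. No gene passed an adjusted p of 0.05 in edgeR's quasi-likelihood test: 0 of 14244, or 0%. At an unadjusted p under 0.05 edgeR had 677 higher and 179 lower genes, and DESeq2 called 358 higher (2.22% of 16131) and 18 lower (0.112%). The biological coefficient of variation behind these counts was 87.7%. Without wild-type replicate 1 edgeR passed 178 higher and 9 lower genes, Tnc (adjusted p = 0.0269) and Col1a2 (adjusted p = 0.0319) among them, and without any other library it passed 0.

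The genes that DESeq2 called higher had uneven support. Of the 358, 254 had at least 10 counts in all 3 knockout libraries, 22 in 2 of them and 82 in 1 alone. In 138 the wild type had no count at all. The groups did not overlap in 269 of the 358 and in 16 of the 18 lower genes, and a call itself favours groups that lie apart. Over all tested genes, the 3 knockout libraries exceeded both wild-type libraries in 13.5% and fell short of both in 11.1%, and 49.4% had a log2 fold change above 0. DESeq2 called 34 genes higher, and 0 lower, in the full set and in each of the 5 fits that left out 1 library. Those 34 include Tnc, Col1a1, Col1a2, Hspg2, Npr3, Fmod, Notch2 and Adamts19. In the lists below, a tested member is one that passed edgeR's filter on low counts, which a gene can do through 1 group alone. The counts over members are therefore descriptions. Those of DESeq2 calls are to be read beside the 2.22% of all genes that DESeq2 called higher. That share is over the 16131 genes with a DESeq2 adjusted p. Of the 14244 genes that passed edgeR's filter, DESeq2 called 276 higher. A range beside a list's median gives the lowest and highest median with 1 of the 5 libraries left out.

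Type I collagen is the main load-bearing fibre of the leaflet. Col1a1 (chr11:94936224-94953042) had 39.7 and 46.3 CPM in the wild type and 319, 507 and 263 CPM in the knockout, with a log2 fold change of 3.08 ± 0.46 (SE). Its partner chain Col1a2 (chr6:4504814-4541544) had 173 and 129 CPM against 866, 1018 and 737 CPM, with 2.53 ± 0.41. In both genes the 3 knockout libraries lay far above both wild-type libraries, and DESeq2 called both (adjusted p = 1.58e-07 for each). Their edgeR adjusted p was 0.802, the value shared by all genes with the smallest p.

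The other fibrillar chains went the same way. All 11 listed members were tested and had a log2 fold change above 0, with a median of 3.07 against -0.01 over all tested genes. In 7 of the 11 the knockout libraries exceeded both wild-type libraries, where 13.5% of all genes and 31.3% of those with the longest transcripts (below) did. Col3a1, which encodes type III collagen of pliable tissue, had 431 and 1098 CPM in the wild type and 2174, 2499 and 1969 CPM in the knockout (1.53 ± 0.54). Col5a1, a chain of the type V collagen that nucleates fibrils, had 49.4 and 109 CPM against 309.9, 398 and 175 CPM (1.89 ± 0.56). Wild-type replicate 2 was the higher of its pair in both genes, and still below the lowest knockout library. DESeq2 called 3 of the 11, namely Col1a1, Col1a2 and Col5a3. Col5a3 had 1 count over both wild-type libraries and 711 over the knockout libraries. Scaled to depth this ratio was 606 (95% exact counting interval, 108 to 23979). Interstitial fibroblast markers, which include collagen genes of this list, also had a higher mean level in the knockout libraries (above). Of their 23 tested members, 9 were above both wild-type libraries in every knockout library and 2 below both. Over all tested genes these shares were 13.5% and 11.1%. The part of these markers in the result for fibrillar collagens was not tested.

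Non-fibrillar collagens were less uniform. Of 19 tested of 26 listed, 16 were above 0, with a median of 1.64 (range, 1.54 without knockout replicate 2 to 2.53 without wild-type replicate 2). In 9 the knockout libraries lay above both wild-type libraries, where 13.5% of all genes did. Col6a1 and Col6a2 encode chains of the beaded microfibrils that surround cells. Col6a1 had 58.5 and 104 CPM in the wild type and 269, 287 and 209 CPM in the knockout, and Col6a2 had 54.8 and 42.2 CPM against 169, 177 and 100.2 CPM. Col14a1, a fibril-associated collagen, had 18.6 and 18.2 CPM against 94.1, 94.8 and 37.6 CPM. The groups were apart in all 3 genes, and DESeq2 called them higher (adjusted p = 0.0226, 0.0361 and 0.0361). Col9a2, a fibril-associated chain known from cartilage, had no wild-type count and 13.6, 4.46 and 3.36 CPM in the knockout, at least 199-fold higher against a floor of 3 counts over the wild-type libraries.

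The basement membrane is the sheet under endothelium and around muscle cells. Of 21 listed genes 20 were tested and all 20 were above 0, with a median of 1.59. After the correction for transcript length (below) 16 of the 20 were above 0. In 14 the knockout libraries lay above both wild-type libraries, where 13.5% of all genes and 31.3% of those with the longest transcripts did. Hspg2 (chr4:137468769-137570630), which encodes the heparan sulphate proteoglycan perlecan, had 7.27 and 15.1 CPM in the wild type and 124, 166 and 102 CPM in the knockout. Its log2 fold change was 3.54 ± 0.52, with 3.08 when wild-type replicate 1 was left out and 4.17 when wild-type replicate 2 was. Nid2, which encodes a nidogen that links laminin to collagen IV, had 26.3 and 13.8 CPM against 88.8, 116 and 167 CPM (2.63 ± 0.51). Lamc1, the gamma chain of most laminins, had 22.6 and 36.7 CPM against 84.3, 223 and 194 CPM (2.49 ± 0.56). In these 3 genes the lowest knockout library stood clear of the highest wild-type library. Lamc3 had no wild-type count and 3.57, 14.9 and 3.77 CPM in the knockout, at least 238-fold higher. DESeq2 called 7 of the 20, all higher, where it called 2.22% of all genes higher.

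Proteoglycans fill the spongy layer of the leaflet. Of 24 tested of 31 listed, 17 were above 0, with a median of 0.68 (range, 0.41 without knockout replicate 1 to 1.72 without wild-type replicate 2). In 10 the knockout libraries lay above both wild-type libraries, where 13.5% of all genes did. Fmod, which encodes the collagen-binding small proteoglycan fibromodulin, had 12.6 and 11.4 CPM in the wild type and 69.1, 47.3 and 87.5 CPM in the knockout (2.50 ± 0.45). Bgn, which encodes biglycan, had 116 and 156 CPM against 522, 558 and 381 CPM (1.84 ± 0.39). Vcan, which encodes versican, the large proteoglycan of valve cushions, had 50.1 and 32.5 CPM against 262, 306 and 93.6 CPM (2.41 ± 0.62). Knockout replicate 3 was the lowest of its group in Bgn and Vcan, and still above both wild-type libraries. DESeq2 called these 3 and no other tested member. Acan, the cartilage proteoglycan aggrecan, had no wild-type count and 3, 50 and 79 counts in the knockout, at least 37.5-fold higher.

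Matrix glycoproteins tune how cells hold the matrix. In this list 25 of 27 tested members (32 listed) were above 0, with a median of 1.07. In 15 the knockout libraries lay above both wild-type libraries, where 13.5% of all genes did. Tnc (chr4:63959785-64047015), which encodes tenascin C, a hexameric glycoprotein of remodelling tissue, had 7.23 and 3.92 CPM in the wild type and 66.7, 66.2 and 91.1 CPM in the knockout. It had the smallest p of all named genes in both tools, with a log2 fold change of 3.75 ± 0.50 and a DESeq2 adjusted p of 7.73e-09. Postn, which encodes periostin of valve mesenchyme, had 374 and 1003 CPM against 3014, 2260.4 and 1561 CPM (1.73 ± 0.61). Ctgf, a matricellular growth factor and Yap target, had 71.0 and 82.8 CPM against 265, 440.2 and 223 CPM (2.01 ± 0.44). Thbs1, which encodes the TGF-beta activator thrombospondin-1, had 26.7 and 77.8 CPM against 195, 427 and 208 CPM (2.41 ± 0.66). The groups were apart in these 4 genes, and the 2 wild-type libraries were less alike in Postn and Thbs1 than in Tnc and Ctgf. Without wild-type replicate 2 the list's count of 15 became 23, while the share of all tested genes rose from 13.5% to 32.6%. The list's median was then 2.61, and without wild-type replicate 1 it was 0.87.

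Elastic fibres give the leaflet its recoil. In this list 17 of 20 tested members (21 listed) were above 0, with a median of 1.22. That median was 0.58 when wild-type replicate 1 was left out and 2.22 when wild-type replicate 2 was. Hmcn1, which encodes the large fibulin hemicentin-1, had 8.03 and 13.8 CPM in the wild type and 76.4, 68.9 and 56.8 CPM in the knockout (2.62 ± 0.45). Fbn2, which encodes the developmental fibrillin of microfibrils, had 42.5 and 57.5 CPM against 149.9, 228 and 187 CPM (1.91 ± 0.38). Mfap4, a microfibril-associated protein, had 90.0 and 97.4 CPM against 277, 220.0 and 213 CPM (1.34 ± 0.33). DESeq2 called these 3 and no other tested member. Fbln5, which encodes the elastin-assembly protein fibulin-5, had 55.9 and 73.4 CPM against 172, 133 and 227 CPM with groups apart and no call.

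**Figure D2:**
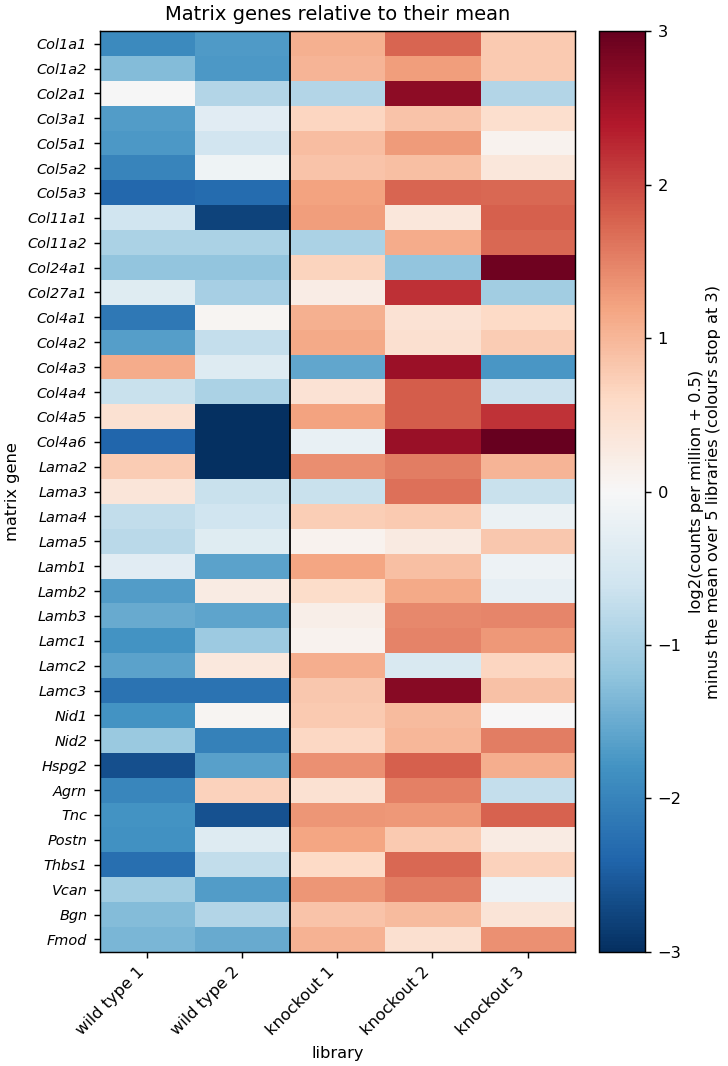
Each row is a tested fibrillar collagen or basement membrane gene, or one of 6 further matrix genes, and each column a library. Colour gives log2(CPM + 0.5) minus the gene's mean over the 5 libraries, with red above and blue below, and the line parts the wild type from the knockout. Most rows are blue in both wild-type libraries, and wild-type replicate 2 lies within the knockout range in Nid1 and Agrn.

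Enzymes that build or cut the matrix had medians nearer to 0. Collagen-processing genes had a median of 0.32, with 20 of 31 tested (33 listed) above 0, and matrix proteases and inhibitors 0.46, with 34 of 47 tested (52 listed) above 0. With 1 library left out the first median ran from -0.07 without wild-type replicate 1 to 0.82 without wild-type replicate 2, so its sign turned. The second ran from 0.19 without wild-type replicate 1 to 1.19 without wild-type replicate 2, and it was -0.08 after a correction for transcript length (below). Loxl1, a lysyl oxidase of elastic fibres, had 13.2 and 13.8 CPM in the wild type and 37.7, 39.0 and 40.2 CPM in the knockout (1.53 ± 0.40). Loxl2, a lysyl oxidase of basement membrane, had 7.99 and 25 CPM against 112, 85.4 and 63.4 CPM (2.40 ± 0.62). Both oxidases separated the groups, Loxl1 with little spread within either. Adamts2, which trims procollagen, had 10.2 and 6.14 CPM against 22.1, 36.1 and 46.5 CPM. Adamts19, a secreted protease expressed in developing valves, had 1.56 and 0.676 CPM against 19.6, 21.8 and 14.5 CPM (4.06 ± 0.81). Adam19, a membrane protease needed for valve and septum formation, had 13.2 and 12.2 CPM against 42.7, 63.1 and 48.4 CPM. DESeq2 called these 5 genes higher. Serpine2, which encodes the protease inhibitor nexin-1, had 52.6 and 58.9 CPM against 98.8, 129 and 146 CPM and was not called.

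Actin linkers tie the cytoskeleton to adhesion sites. Of 36 tested members (39 listed) 32 were above 0, with a median of 1.05. After the correction for transcript length (below) 26 of the 36 were above 0. In 21 the knockout libraries lay above both wild-type libraries, where 13.5% of all genes and 31.3% of those with the longest transcripts did. Flnc, which encodes filamin C, had 24.2 and 39.4 CPM in the wild type and 119, 112 and 88.4 CPM in the knockout (1.74 ± 0.40). Utrn, which encodes the dystrophin relative utrophin, had 10.2 and 12.2 CPM against 43.8, 106 and 39.1 CPM (2.49 ± 0.60). Myh10, non-muscle myosin IIB, had 36.5 and 28.9 CPM against 136, 186 and 73.3 CPM (2.01 ± 0.50). DESeq2 called these 3 of the 36, and both Flnc and Utrn are also expressed in heart muscle. Svil, which encodes the membrane-bound actin binder supervillin, had 14.4 and 23.9 CPM against 47.6, 73.0 and 52.8 CPM and was not called. Ank3, which encodes the membrane scaffold ankyrin-G, is outside the list and had 7.84 and 6.71 CPM against 39.4, 39.4 and 40.2 CPM, nearly level within each group.

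Junction and polarity genes were at higher levels in part. Tjp1, which encodes the tight junction scaffold ZO-1, had 22.6 and 24.0 CPM in the wild type and 68.0, 74.3 and 76.1 CPM in the knockout (1.64 ± 0.35). Dchs1, an atypical cadherin mutated in inherited mitral valve prolapse, had 3.16 and 8.55 CPM against 36.5, 28.9 and 27.3 CPM (2.40 ± 0.63). Fat1, of the same cadherin class, had 4.99 and 1.01 CPM against 19.7, 27.4 and 21.3 CPM (2.93 ± 0.88). DESeq2 called these 3 higher, and their groups were apart. Junction genes had a median of 0.61 (32 of 45 tested above 0, 47 listed), planar polarity genes 0.59 (15 of 21, 24 listed) and integrins 0.67 (15 of 22, 26 listed). Those medians ran from 0.40 without wild-type replicate 1 to 1.09 without wild-type replicate 2 for junctions, from 0.23 without wild-type replicate 1 to 1.42 without wild-type replicate 2 for planar polarity and from 0.49 without knockout replicate 1 to 1.33 without wild-type replicate 2 for integrins. Daam1, a formin of the planar polarity pathway, had 24.5 and 21.3 CPM against 46.7, 85.0 and 64.6 CPM, with a DESeq2 adjusted p of 0.0712. The polarity cadherin gene Celsr1 had no wild-type count and was at least 64.8-fold higher. Inadl and Ctnna2, a polarity scaffold and an alpha-catenin, had no wild-type count and were at least 222-fold and 133-fold higher. Among integrins, Itga9, the alpha chain that binds tenascin C, had 9.06 and 31.7 CPM against 74.9, 61.8 and 59.9 CPM (1.68 ± 0.60) and was not called. The 1 integrin called, Itgam, a myeloid cell marker, had no wild-type count and 4.30, 0.142 and 7.53 CPM in the knockout.

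Signalling genes are given from ligands and receptors to targets. In the Notch list 13 of 22 tested (24 listed) were above 0, with a median of 0.34 (range, 0.14 without knockout replicate 2 to 0.65 without wild-type replicate 1). Corrected for transcript length (below), 10 of the 22 were above 0 and the median was -0.06, so its sign turned. The receptor Notch2 had 3.43 and 2.15 CPM in the wild type and 28.1, 47.8 and 21.9 CPM in the knockout, and Notch1, whose loss disturbs valve formation, had 15.3 and 43.5 CPM against 135, 102 and 94.5 CPM. Notch2 was called by DESeq2 (adjusted p = 1.36e-05) and Notch1 was not (adjusted p = 0.0792), though the groups were apart in both. The ligand gene Jag2 had no wild-type count and was at least 54.9-fold higher.

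The guidance list holds Slit, Robo, Eph, semaphorin and plexin genes, which steer cell movement. Of 53 tested (61 listed) 45 were above 0, with a median of 0.87 (range, 0.73 without knockout replicate 1 to 1.60 without wild-type replicate 2). The semaphorin receptor Plxnb2 had 27.4 and 25.1 CPM in the wild type and 93.9, 87.5 and 168 CPM in the knockout (2.15 ± 0.45). Its relative Plxnb1 had 0.761 and 0.173 CPM against 16.1, 11.1 and 18.4 CPM (5.04 ± 1.08). Robo1, a Slit receptor, had 2.21 and 4.56 CPM against 29.1, 18.9 and 15.9 CPM, and the netrin receptor Unc5b had 6.77 and 15.9 CPM against 35.8, 54.6 and 64.7 CPM. These 4 receptors were called by DESeq2, and each separated the groups.

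Growth factor receptors were above 0 in 41 of 52 tested (55 listed), with a median of 0.62 that ran from 0.46 without knockout replicate 2 to 1.73 without wild-type replicate 2. It was 0.99 without wild-type replicate 1. Pdgfrb, the PDGF receptor of mural and mesenchymal cells, had 19.8 and 26.2 CPM in the wild type and 84.3, 65.2 and 65.4 CPM in the knockout. Igf1r, the receptor of insulin-like growth factors, had 4.76 and 4.403 CPM against 15.7, 33.4 and 16.8 CPM, and Igf2r, which clears IGF2, had 63.7 and 88.7 CPM against 224, 369 and 186 CPM. Groups were apart in all 3, and DESeq2 called them. The EGF family ligand Ereg had no wild-type count and 6.54, 5.17 and 8.80 CPM in the knockout, at least 182-fold higher. Hippo pathway genes were above 0 in 24 of 26 tested (27 listed), with a median of 0.79 (range, 0.59 without knockout replicate 2 to 1.44 without wild-type replicate 2). Amotl2, a Yap-binding motin, had 9.74 and 21.2 CPM against 43.7, 105 and 62.4 CPM and was called by DESeq2, and the upstream tumour suppressor Nf2 had 36.0 and 46.8 CPM against 73.6, 85.6 and 97.7 CPM and was not.

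The TGF-beta and BMP families act in valve growth from the cushion stage on. TGF-beta genes were above 0 in 23 of 28 tested (28 listed, median 0.88) and BMP genes in 18 of 27 (36 listed, median 0.55). The TGF-beta median ran from 0.39 without wild-type replicate 1 to 1.55 without wild-type replicate 2, and the BMP median from 0.41 without knockout replicate 1 to 1.02 without wild-type replicate 2. Tgfb2, the ligand of the endocardial cushion, had 21.6 and 61.1 CPM in the wild type and 101, 169 and 91.5 CPM in the knockout (1.54 ± 0.58). Crim1, a membrane protein that binds BMPs, had 1.07 and 5.10 CPM against 18.2, 16.1 and 21.6 CPM (2.59 ± 0.88). The secreted BMP antagonist gene Chrdl1 had 1 wild-type count and 1019 in the knockout, and the ratio scaled to depth was 869 (95% counting interval, 156 to 34351). The BMP pseudoreceptor Bambi was lower, with 134 and 181 CPM against 74.6, 60.5 and 78.4 CPM (-1.15 ± 0.33), and had a DESeq2 adjusted p of 0.0656.

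The Wnt list had 40 of 54 tested members (63 listed) above 0 and a median of 0.50 (range, 0.40 without wild-type replicate 1 to 1.39 without wild-type replicate 2). Apc, the scaffold of the beta-catenin destruction complex, had 3.62 and 7.66 CPM in the wild type and 45, 54.3 and 28.9 CPM in the knockout (2.92 ± 0.60). Ror2, a Wnt5a receptor, had 8.26 and 8.25 CPM against 37.0, 20.4 and 38.9 CPM (1.96 ± 0.53). These 2 were the members that DESeq2 called. Gsk3b, the kinase of the same complex, had 29.3 and 16.7 CPM against 65.5, 87.0 and 51.2 CPM (1.56 ± 0.46) and was not called. Ctnnb1, beta-catenin itself, had 532 and 682 CPM against 919, 812 and 771 CPM (0.46 ± 0.36). Of the pathway's targets, Axin2 was at most 3.42 CPM in any library, and Lef1 had 10.0 and 32.9 CPM against 22.5, 15.1 and 7.94 CPM, with overlapping groups.

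Hedgehog genes belong to the pathway most closely tied to cilia. They were above 0 in 18 of 22 tested members (26 listed), at low counts, with a median of 0.96 (range, 0.63 without knockout replicate 3 to 2.03 without wild-type replicate 2). The target and receptor Ptch1 had 1.14 and 5.75 CPM in the wild type and 6.00, 4.32 and 5.77 CPM in the knockout, with overlapping groups (0.63 ± 1.10). The target Gli1 was at most 3.02 CPM and at 0 in 2 knockout libraries. Gli2, an effector, had no wild-type count and 43, 152 and 1 counts in the knockout, at least 55.7-fold higher with nearly all counts in 2 libraries. Boc, a co-receptor, had 9.36 and 26.2 CPM against 24.9, 65.0 and 86.1 CPM, with overlapping groups. Ccnd1, a cyclin gene that Hedgehog signalling can induce, had 20.9 and 11.5 CPM against 31.1, 35.0 and 40.4 CPM (1.13 ± 0.47). DESeq2 called 1 member, the secreted protein gene Scube3, which had no wild-type count and at most 4.22 CPM in the knockout.

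Genes of the cilium other than Ift88 lay on both sides of 0. In complex B with its kinesin-2 motor, 10 of the 20 tested members other than Ift88 (21 listed) were above 0. Their median of 0.11 ran from -0.13 without knockout replicate 1 to 0.42 without wild-type replicate 1. In complex A with dynein-2, 4 of 15 (15 listed) were above 0. The median there was -0.21 and ran from -0.38 without knockout replicate 1 to 0.28 without wild-type replicate 1, so neither complex had a settled sign. Kif3a and Kif3b encode the motor subunits of kinesin-2. Kif3a had 18.7 and 15.9 CPM in the wild type and 33.0, 31.0 and 23.3 CPM in the knockout (0.75 ± 0.44), and Kif3b had 2.44 and 14.1 CPM against 16.4, 17.2 and 21.8 CPM (1.16 ± 0.84). Dync2h1, the motor chain of dynein-2, which carries cargo back from the ciliary tip, had no count in wild-type replicate 1, 1.72 CPM in wild-type replicate 2 and 8.47, 17.7 and 5.12 CPM in the knockout. Its dynein-2 partner Wdr60 had 0.190 and 0.936 CPM against 7.20, 5.28 and 2.50 CPM, while another, Wdr34, had 54.6 and 27.4 CPM against 26.1, 15.4 and 26.8 CPM. The members thus differed in direction within one motor.

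The BBSome, the coat that carries membrane proteins out of the cilium, had 2 of 13 tested (13 listed) above 0, with a median of -0.45 (range, -0.73 without wild-type replicate 2 to -0.29 without wild-type replicate 1). Bbip1, a small subunit, had 96.8 and 54.7 CPM in the wild type and 41.6, 35.7 and 28.5 CPM in the knockout (-1.10 ± 0.41). Mkks, a chaperone of BBSome assembly, had 189 and 63.6 CPM against 68.2, 46.9 and 41.0 CPM, with overlapping groups. Transition zone genes, which form the gate at the ciliary base, had 15 of 27 tested (28 listed) above 0 (median 0.15), and ciliary membrane genes 12 of 21 (26 listed, median 0.18). With 1 library left out these medians ran from 0.01 without wild-type replicate 1 to 0.16 without wild-type replicate 2 and from 0.09 without knockout replicate 2 to 0.38 without wild-type replicate 2. Corrected for transcript length (below), the transition zone median was 0.08. That of ciliary membrane genes was then -0.25, with 6 of the 21 above 0, so its sign turned. At the gate, Ahi1 had 0.114 and 3.19 CPM against 14, 18.8 and 28.2 CPM (3.61 ± 1.38), and B9d2 had 46.3 and 49.9 CPM against 33.8, 21.3 and 23.0 CPM (-0.89 ± 0.40). None of these 5 lists of ciliary genes held a DESeq2 call.

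Genes of the ciliary base were above 0 in 20 of 27 tested members (28 listed), with a median of 0.74 (range, 0.44 without knockout replicate 1 to 1.106 without wild-type replicate 2). Pcnt, which encodes the centrosomal scaffold pericentrin, had 2.21 and 0.624 CPM in the wild type and 12.8, 20.4 and 12.7 CPM in the knockout and was the list's only DESeq2 call (adjusted p = 0.00297). Pcm1, which encodes the core of centriolar satellites, had 22.3 and 15.5 CPM against 59.5, 54.9 and 29.9 CPM (1.35 ± 0.49). Both separated the groups. Dzip1, the gene of the study's other experiment, had 0.0381 and 1.109 CPM against 7.04, 4.15 and 1.97 CPM (2.91 ± 1.78). Cby1, the partner of the Dzip1 protein at the ciliary base, had 52.7 and 33.0 CPM against 46.2, 20.4 and 40.7 CPM, with overlapping groups.

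Among valve endothelial genes, Npr3 stood apart. Npr3 (chr15:11839896-11907287), a receptor gene that removes natriuretic peptides from the circulation and marks endocardium and valve endothelium, had 12.8 and 10.2 CPM in the wild type and 61.9, 83.2 and 86.3 CPM in the knockout. Its log2 fold change was 2.75 ± 0.41, with 2.89 and 2.59 without wild-type replicates 1 and 2. Pecam1, the general endothelial adhesion molecule, had 50.3 and 557 CPM against 322, 449.7 and 336 CPM, and Nfatc1 had 56.3 and 405 CPM against 129, 568 and 212 CPM. In both the wild-type libraries lay on either side of most or all of the knockout libraries. Emcn, a sialomucin of endothelium, had 55.6 and 83.7 CPM against 181, 207 and 119 CPM, and Vwf, von Willebrand factor, had 9.86 and 52.8 CPM against 135, 175 and 189.6 CPM. Over the endothelial list the median was 0.30, and it was -0.37 when wild-type replicate 1 was left out and 2.43 when wild-type replicate 2 was.

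Transcripts of the cardiac transcription factors Tbx5 and Tbx2 were highest in knockout replicates 2 and 3, which also had the most Sln and Myl7. The list of valve and mesenchyme transcription factors was above 0 in 30 of 37 tested (38 listed, median 0.57, and 0.90 without wild-type replicate 1). Tbx5, a factor of atria and left ventricle, had 21.8 and 4.42 CPM in the wild type and 47.8, 171 and 149.9 CPM in the knockout. Tbx2, a factor of the atrioventricular canal, had 0.0761 and 0.0520 CPM against 1.106, 6.58 and 6.22 CPM. In both genes knockout replicates 2 and 3, the libraries with Sln at 613 and 489 CPM, stood above knockout replicate 1. Knockout replicate 1 in turn stood above both wild-type libraries in both genes, with less Sln and Myl7 than wild-type replicate 1. The part of atrial muscle in these differences was not tested. Tbx20, a factor of muscle and endocardium, had 169.8 and 42.8 CPM against 371, 491 and 427 CPM, and Zeb2, a factor of mesenchymal transition, had 15.9 and 10.45 CPM against 30.9, 42.4 and 65.3 CPM. Sox9, a factor of valve mesenchyme and cartilage, had 20.1 and 11.8 CPM against 21.8, 19.4 and 30.01 CPM, with overlapping groups.

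DESeq2 called fewer genes lower (18) than higher (358), although 7207 of 14244 tested genes had a log2 fold change below 0. After the correction for transcript length (below), edgeR had 338 higher and 286 lower genes at an unadjusted p under 0.05. Without that correction the counts were 677 and 179. Rbp7 (chr4:149449687-149454978), a cellular retinol-binding protein gene, had 64.5 and 56.3 CPM in the wild type and 18.3, 12.2 and 7.29 CPM in the knockout (-2.26 ± 0.50). Trmt12, which encodes an enzyme of wybutosine synthesis in transfer RNA, had 25.7 and 25.7 CPM against 5.47, 4.79 and 7.08 CPM (-2.15 ± 0.55). Atg16l1, which encodes an autophagy protein, had 56.8 and 49.8 CPM against 22.8, 16.3 and 22.3 CPM (-1.38 ± 0.38). In these 3 genes the wild-type libraries lay close together and above every knockout library. Rnf13, a membrane ubiquitin ligase gene, had 319 and 185 CPM against 100.3, 81.8 and 72.1 CPM, and Ly6a, which encodes the surface antigen Sca-1, had 47.5 and 89.9 CPM against 20.2, 20.2 and 7.90 CPM. DESeq2 called these 5 lower in the full set (adjusted p between 0.000949 and 0.0448), and none of them in every fit that left out 1 library. Ccng2, which encodes the growth-arrest cyclin G2, had 156 and 170.1 CPM against 84.9, 59.5 and 79.2 CPM, and Gemin7, a gene of spliceosome assembly, had 159 and 188 CPM against 96.2, 72.5 and 74.3 CPM. Neither passed in DESeq2 (adjusted p = 0.0656 and 0.0617).

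Ribosomal protein genes were nearly all below 0. Of 74 tested (75 listed) 72 were, with a median of -0.61. In 41 every knockout library lay below both wild-type libraries, where 11.1% of all tested genes and 20.7% of those with the shortest transcripts (below) did. Rps14, a small-subunit protein gene, had 1028 and 1769 CPM in the wild type and 775, 601 and 587 CPM in the knockout (-1.09 ± 0.41), and Rps9 had 480.1 and 928 CPM against 401, 317 and 341 CPM (-0.995 ± 0.41). Wild-type replicate 2 was the highest library in both. Without wild-type replicate 1 the count of 41 became 71, while the share of all tested genes rose from 11.1% to 29.4%. The list's median was then -0.88, against -0.29 without wild-type replicate 2. These genes have many near-identical processed copies, so their counts depend on how shared reads were assigned. In the proteasome 29 of 31 tested subunits (31 listed) were below 0 (median -0.36, and -0.21 after the correction for length, against -0.12 over all tested genes). In 18 of the 31 every knockout library lay below both wild-type libraries, where 11.1% of all tested genes and 20.7% of those with the shortest transcripts did. Psma7, a core alpha subunit, had 547 and 733 CPM against 388, 299.9 and 359 CPM, and Psmb6, a catalytic beta subunit, had 876 and 702 CPM against 534, 371 and 490.3 CPM. DESeq2 and edgeR called no member of either list.

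Respiratory chain genes had a sign that 1 library set. The 73 tested members (74 listed) were below 0, with a median of -0.84, yet no member had groups apart. Ndufb4, a subunit of complex I, had 776 and 184 CPM in the wild type and 225, 180.3 and 183 CPM in the knockout. Without wild-type replicate 1, the library richest in muscle transcripts, the median was 0.72, and without wild-type replicate 2 it was -1.55.

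**Figure D3:**
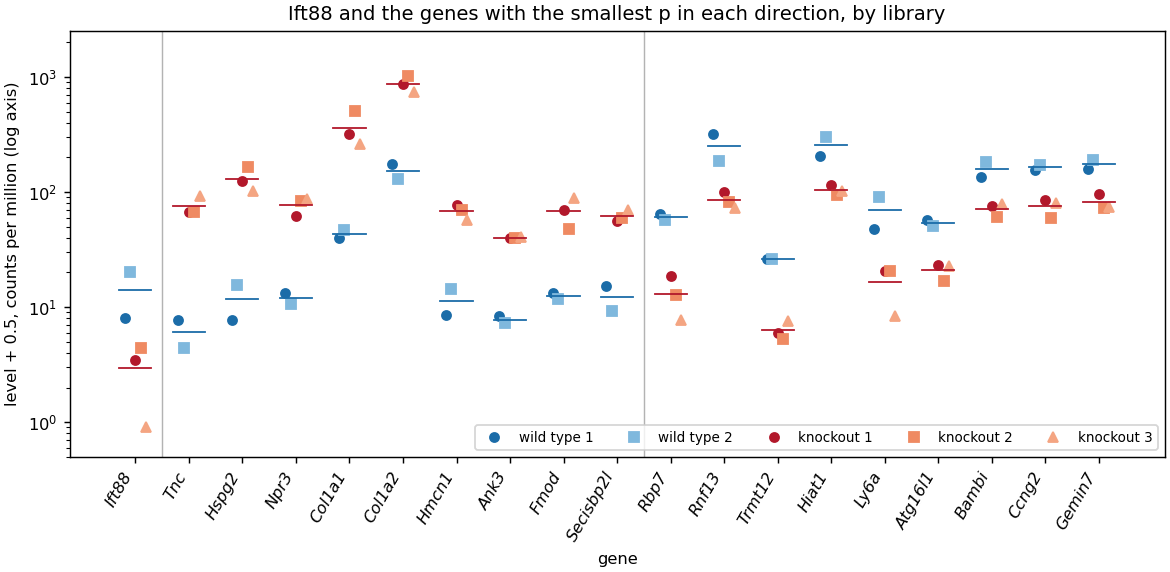
Points are single libraries, as CPM + 0.5 on a log axis, and bars are group means, for Ift88 (left), 9 genes higher in the knockout (middle) and 9 lower (right). The 18 genes were taken by the smallest edgeR p among genes whose groups do not overlap, so their separation was a condition of the choice, and 3 genes of each direction with almost no count in 1 group (Frmpd1, Prkdc and Camk1d; Oprl1, Fcer1a and Naip2) are not drawn. Knockout libraries lie between 39.4 and 40.2 CPM for Ank3.

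Some genes had counts in 1 group alone. No count in the wild type and at least 30 in every knockout library was found for 26 genes, and the reverse for 12. Frmpd1, which encodes a scaffold with a FERM and a PDZ domain, had 258, 571 and 444 counts in the knockout, at least 362-fold higher against 3 counts over the wild-type libraries. Ano4, an anoctamin gene, was at least 187-fold higher and Hmha1, a small GTPase regulator gene, at least 153-fold. Prkdc, the DNA repair kinase gene, had 1 count in each wild-type library and 432, 592 and 100 in the knockout, and the ratio scaled to depth was 479 (95% counting interval, 132 to 3962). Camk1d, a calcium-dependent kinase gene, had 1 wild-type count and 136, 2166 and 1296 in the knockout. On the other side, Oprl1, the nociceptin receptor gene, had 94 and 574 wild-type counts. All 3 knockout libraries lacked it, which gives at least 261-fold lower. Fcer1a, an IgE receptor subunit gene of mast cells and basophils, had 98 and 240 counts and was at least 132-fold lower. Trim9, Khdrbs2, Dnaic2, Ptgir, Il6 and Dclk3 were lower by bounds of at least 50.8-fold to 82.5-fold. These intervals and bounds cover counting error only, and the libraries of either group also lacked counts that their own replicates had (above).

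Transcript length moved with the comparison. In the longest of 5 groups of genes, with transcripts of 5221 bases or more, the median log2 difference was above 0 in all 6 pairs of a knockout and a wild-type library, at 0.42 to 1.10. In the shortest it was below 0 in all 6, at -0.47 to -0.14. Within the knockout the longest group ranged from -0.34 to 0.31 over 3 pairs, and within the wild type it was 0.11. The knockout libraries exceeded both wild-type libraries in 31.3% of the longest genes and 3.89% of the shortest, and fell below both in 3.12% and 20.7%. Over all tested genes the median length was 3331 bases. It was 6119 for fibrillar collagens, 6576 for basement membrane genes and 7458 for actin linkers, but 3496 for matrix glycoproteins, 3578 for proteoglycans, 3896 for elastic fibre genes and 3305 for collagen-processing genes. Ribosomal protein genes were short, at 1108. After a correction for length in each library, the medians were 2.20 for fibrillar collagens, 0.87 for basement membrane genes, 1.03 for matrix glycoproteins, 0.68 for elastic fibre genes, 0.38 for actin linkers and -0.34 for ribosomal proteins, against -0.12 over all tested genes. Other medians came closer to that of all genes: 0.29 for proteoglycans, 0.30 for guidance genes (0.87 before), 0.30 for junctions, 0.22 for integrins, -0.08 for matrix proteases and -0.21 for the proteasome. So did that of planar polarity genes, whose median length was 6387 bases, at 0.24 (0.59 before) with 12 of 21 above 0. Col1a1, Tnc, Hspg2 and Npr3 had corrected log2 fold changes of 2.45, 2.95, 2.17 and 1.98. Of 66 genes named here that DESeq2 called higher, 7 lost more of their log2 fold change than they kept. These were Fbn2 (0.77), Igf2r (0.75), Hmcn1 (1.13), Flnc (0.76), Vcan (1.10), Igf1r (1.04) and Utrn (1.16), and none of the 66 fell to 0 or below.

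**Figure D4:**
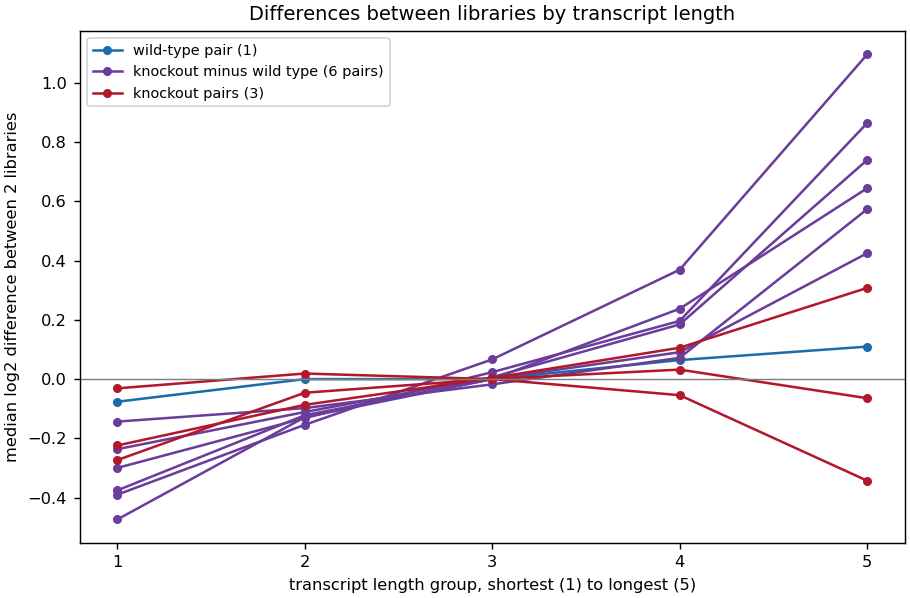
Lines join the median log2 difference between 2 libraries over 5 groups of tested genes, from the shortest (1) to the longest transcripts (5), with one line for each of the 10 pairs of libraries. All 6 knockout minus wild-type lines end between 0.42 and 1.10 in the longest group, above the pairs within a group.

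The titles of 3 libraries, wild-type replicate 1 and knockout replicates 1 and 2, share the prefix IR28N, whose meaning is not given. Among those 3 alone the log2 fold change was -1.12 for Ift88, 3.38 for Col1a1, 3.20 for Tnc, 4.32 for Hspg2, 2.50 for Npr3 and -2.08 for Rbp7, each of the same sign as over the 5 libraries. The list medians among them were 2.84 for fibrillar collagens, 2.53 for basement membrane genes and -0.14 for ribosomal proteins, against 0.18 over all tested genes, and edgeR passed 0 genes. The other 2 libraries, wild-type replicate 2 and knockout replicate 3, have prefixes of their own and leave no replicate for a test.

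**Figure D5:**
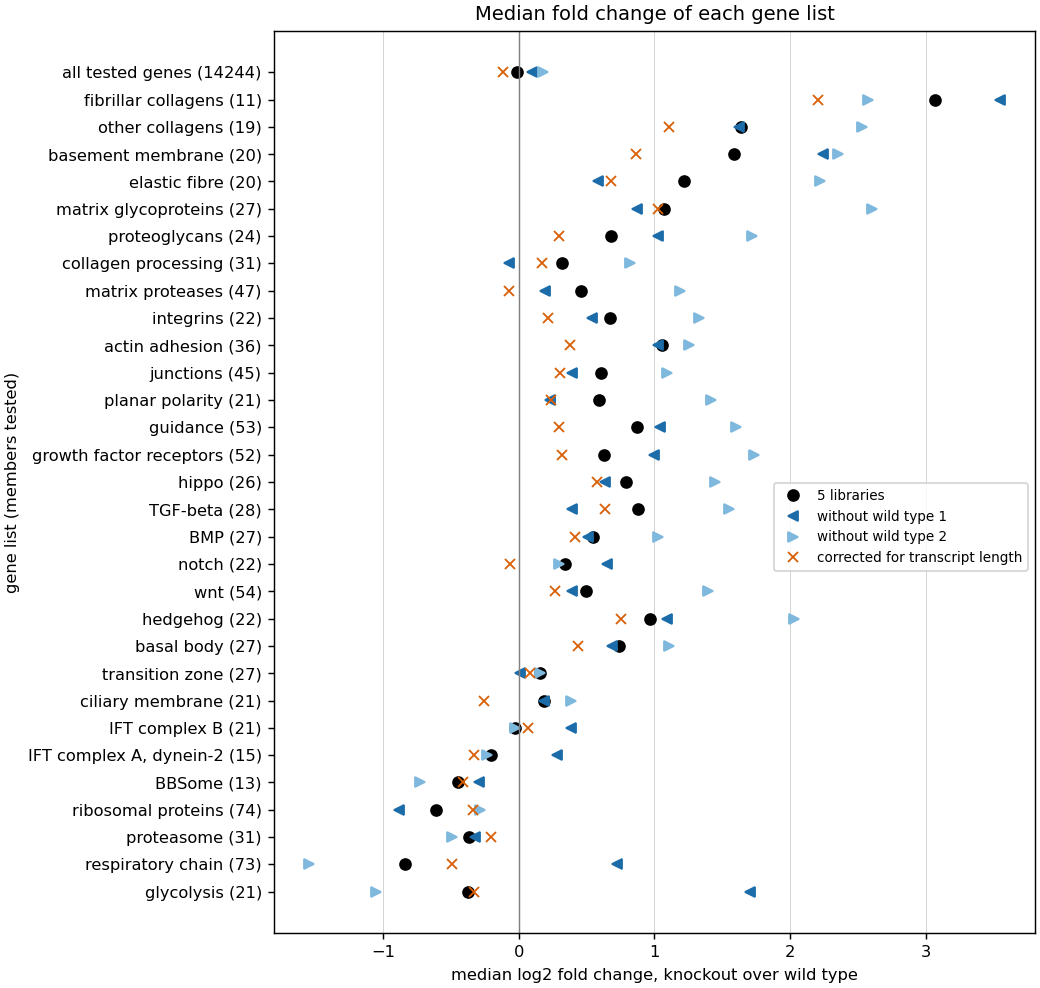
Points give the median log2 fold change (x axis) of each gene list, with the number of tested members in brackets, in the full set, without either wild-type library, and after the length correction. Fibrillar collagens stay between 2.20 and 3.55 in all 4, while the respiratory chain runs from -1.55 to 0.72.

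The Dzip1 table gives a level for the same genes in other leaflets, here scaled to plain library size and not tested against the Ift88 libraries because the tables were made separately. There the 6 libraries, Dzip1S14R/+ and Dzip1+/+ alike, had cardiomyocyte list means between 8.81 and 8.91 on the log2 scale, Myl2 between 3541 and 4277 CPM, and Sln at most 6.12 CPM. Col1a1 stood at 1207 to 2119 CPM and Tnc at 172 to 208 CPM in those 6 libraries. On the same scale, Col1a1 was at 33.3 and 49.6 CPM and Tnc at 6.05 and 4.20 CPM in the Ift88 wild type, and at 275 to 534 CPM and 67.3 to 95.2 CPM in the Ift88 knockout.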

How the data were processed

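Per the labels' protocols, libraries of the low-input SMART-Seq v4 kit were prepared from column-purified, DNase-treated RNA of mitral leaflets. Whole-number counts per gene symbol were used as the authors deposited them. The submitters' processing notes name FastQC 0.11.5, cutadapt 1.11, HTSeq, DESeq2 and DESeq with GRCm38 (mm10), but no source used here names the aligner, annotation or strand setting, so a gene and an antisense partner may share reads. The deposited fold changes and p-values were not used.

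The test across genes was that of edgeR 4.0.16 under R 4.3.3 (TMM scaling of the counts, filterByExpr with a minimum count of 10, quasi-likelihood F test, Benjamini-Hochberg over 14244 tested genes of 24062, threshold 0.05), 3 knockout libraries against 2 wild-type libraries with no covariate. Calls by DESeq2 1.42.0 are given as an alternative. An adjusted p in the text is from the tool its sentence names. CPM are counts over TMM-scaled library size, and log2 levels carry a pseudocount of 0.5. A gene without counts in 1 group was given a bound from 3 counts over that group. No set test was made: each of 51 gene lists (10 of cell type markers) was described by counts and medians. The 13 mitochondrially encoded genes of 1 list have no row in the table, and of 6 sex-linked genes 2 were tested.

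Total counts ran from 23361414 to 53789026, so 1 count is 0.0173 to 0.0409 CPM. Transcript lengths and coordinates came from GENCODE M21 on GRCm38, in which 23680 of the 24062 symbols were found (22758 by symbol, 922 by synonym), and the length correction was a lowess curve (span 0.3) in each library. Promoter sequences came from RefSeq (GRCm38.p6).

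Genes were named by rules: Ift88; up to 12 genes per direction with the smallest edgeR p among those with a mean count of at least 50 and groups that do not overlap; up to 4 members per list by smallest p; up to 8 per direction with counts in 1 group alone or with DESeq2 calls in every fit; the most abundant genes; and a fixed list. Predicted genes and those that share reads with copies were not named in the rules on single genes. The chamber genes were added after their values were seen. The members and lists were chosen with earlier results of these data known. Alternatives covered scaling (RLE, upper quartile, plain library size), filters, limma-voom (limma 3.58.1) with and without quality weights, an adjusted p of 0.1, libraries left out, the title prefix and the cardiomyocyte level as covariates, and length. The scripts were tested on simulated data before use.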

Additional observations from a re-analysis of the deposited data

How the results depend on the processing

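No gene passed in edgeR or limma-voom under another scaling, filter, covariate, length correction or an adjusted p of 0.1. DESeq2 gave 358 higher and 18 lower genes. With 1 library left out, the edgeR counts ran from 0 to 178 higher and from 0 to 9 lower, and wild-type replicate 1 alone moved them. The DESeq2 counts then ran from 61 to 1452 higher and from 10 to 424 lower: leaving out wild-type replicate 1 gave 1452 and 229, wild-type replicate 2 gave 1407 and 424, knockout replicate 1 gave 139 and 34, knockout replicate 2 gave 61 and 10, and knockout replicate 3 gave 141 and 16. Where a fit held 1 wild-type library, that library was assumed to vary like the knockout libraries. The cause of these shifts was not tested.

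Ift88 stayed below 0 under the settings run, from -3.15 with the title prefix as a covariate to -1.12 in the libraries titled IR28N alone, and from -3.05 to -1.62 in edgeR with 1 library left out. Named genes were chosen in large part by a small p or by groups that do not overlap, which favours a kept sign. Of 144 named genes 138 kept their sign in every setting. The exceptions, with 1 library left out in edgeR, were Cby1 (-0.559 to 0.0905), Lef1 (-1.14 to 0.595), Ndufb4 (-1.98 to 0.0654), Nfatc1 (-0.463 to 2.43), Pecam1 (-0.628 to 2.88) and Ptch1 (-0.130 to 2.23). In DESeq2 the sign turned for the same 6 genes when wild-type replicate 1 was left out, at 0.0790 for Cby1, 0.0545 for Ndufb4, -0.467 for Nfatc1, -0.636 for Pecam1 and -0.141 for Ptch1, except that Lef1 turned without wild-type replicate 2 (0.533) and Nfatc1 also without knockout replicate 2 (-0.472). Lef1 also stood at 0.903 in the IR28N libraries alone and at 0.415 with the cardiomyocyte covariate, and after the length correction Cby1 was at 0.0747 and Ptch1 at -0.395.

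Of 49 lists 31 kept the sign of their median in 14 settings, among them the fibrillar and other collagens, basement membrane, elastic fibre, matrix glycoprotein, proteoglycan, actin linker, BBSome, ribosomal and proteasome lists. The median over all tested genes was -0.01, and it moved to 0.10 with plain library size, 0.18 in the IR28N libraries, 0.23 with the cardiomyocyte covariate and -0.12 after the length correction. No paired analysis was possible because no replicate number in the labels pairs a knockout with a wild-type library. The title prefix, which 3 libraries share, was fitted as a covariate instead. Depth limits genes with few counts, where a bound or ratio covers counting error only.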

Other observations

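Other gene groups are given here as values, and a range beside a median gives its lowest and highest value with 1 of the 5 libraries left out. Cartilage and bone genes were above 0 in 14 of 17 tested (27 listed), with a median of 1.20 (range, 0.71 without knockout replicate 2 to 2.11 without wild-type replicate 2). Spp1, which encodes the bone matrix protein osteopontin, had 0.419 and 0.624 CPM in the wild type and 4.14, 2.10 and 32.4 CPM in the knockout, and it was the list's only DESeq2 call. Epicardial and mesothelial markers were above 0 in 12 of 15 tested (18 listed), with a median of 1.68 (range, 0.98 without knockout replicate 2 to 3.16 without wild-type replicate 1). Upk3b, a mesothelial uroplakin gene, had no count in the wild type or in knockout replicate 1 and 64.7 and 2.42 CPM in knockout replicates 2 and 3, and Lrrn4 was at 19.8 and 5.69 CPM in the same 2 libraries alone. These were the DESeq2 calls of that list, and they rest on libraries that stood highest in the list as a whole. Aldh1a1, a retinoic acid synthesis gene, had 15.7 and 26.5 CPM against 57.3, 48.7 and 31.3 CPM, with groups apart.

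Tubulin and kinesin genes were above 0 in 27 of 38 tested (41 listed), with a median of 0.45 (range, 0.34 without knockout replicate 1 to 1.108 without wild-type replicate 1). Kif26b, an atypical kinesin gene, had 5.63 and 3.26 CPM in the wild type and 20.7, 12.9 and 19.2 CPM in the knockout. Kif16b, an endosomal kinesin gene, had 5.97 and 8.34 CPM against 24.7, 17.9 and 24.8 CPM. Kif5b, the main conventional kinesin heavy chain gene, had 151 and 108 CPM against 321, 419 and 190.0 CPM. Groups were apart in these 3, with no DESeq2 call. Potassium channel genes were above 0 in 17 of 29 tested (31 listed). Their median of 0.40 ran from 0.01 without knockout replicate 2 to 4.55 without wild-type replicate 1, and it was -0.02 after the length correction. Kcnk3, an acid-sensitive leak channel gene, had 3.16 and 0.971 CPM against 7.04, 19.2 and 44.3 CPM and was called by DESeq2, while Kcnj8, a channel gene of pericytes, had 38.9 and 46.8 CPM against 22.4, 15.6 and 13.5 CPM and was lower in every knockout library. Secretory pathway genes were above 0 in 21 of 37 tested (37 listed), with a median of 0.19 (range, -0.19 without wild-type replicate 1 to 0.69 without wild-type replicate 2). Sec24d, a coat gene needed for procollagen export, had 57.5 and 73.7 CPM against 107, 149.9 and 152 CPM. Hsp90b1, a chaperone gene of the endoplasmic reticulum, had 223 and 302 CPM against 599.7, 485 and 367 CPM. Ssr4, of the translocon complex, had 209.9 and 242 CPM against 148, 102 and 139.7 CPM, lower in every knockout library. The direction thus differed within the list.

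Proliferation and stress lists lay on both sides of 0, and most of their medians turned sign when 1 library was left out. Cell cycle genes were above 0 in 15 of 38 tested (38 listed), with a median of -0.10 (range, -0.26 without wild-type replicate 2 to 0.24 without wild-type replicate 1). Mki67, the proliferation marker, had 7.27 and 2.93 CPM in the wild type and 32.3, 36.0 and 3.64 CPM in the knockout. Its groups overlapped. Glycolysis genes were above 0 in 7 of 21 (22 listed), with a median of -0.37 (range, -1.06 without wild-type replicate 2 to 1.70 without wild-type replicate 1), and Hk2, a hexokinase gene, had 4.26 and 0.156 CPM against 19.0, 52.9 and 23.0 CPM. Autophagy genes were above 0 in 13 of 30 (30 listed), with a median of -0.04 (range, -0.34 without wild-type replicate 1 to 0.20 without wild-type replicate 2) and Rb1cc1, a gene of autophagosome initiation, at 30.2 and 24.7 CPM against 53.3, 62.3 and 61.2 CPM. Interferon genes were above 0 in 14 of 22 (25 listed), with a median of 0.27 (range, -0.41 without knockout replicate 1 to 0.71 without wild-type replicate 2). Immediate early genes were above 0 in 19 of 23 (25 listed, median 0.34), with Atf3 at 1.03 and 20.0 CPM against 30.5, 58.8 and 18.2 CPM, and ERK feedback genes in 10 of 15 (16 listed, median 0.51). The immediate early median ran from -0.03 without wild-type replicate 1 to 0.83 without wild-type replicate 2, and the ERK feedback median from 0.14 without knockout replicate 2 to 0.63 without wild-type replicate 1.

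Medians of the cell type marker lists depended on single libraries. The median was 0.66 for interstitial cells (range, 0.24 without knockout replicate 2 to 1.82 without wild-type replicate 2) and 0.92 for smooth muscle and pericytes (range, 0.53 without wild-type replicate 2 to 2.29 without wild-type replicate 1). Cardiomyocyte markers had 0.42 (range, -0.57 without wild-type replicate 2 to 8.66 without wild-type replicate 1) and leukocyte markers 0.25 (range, -0.26 without wild-type replicate 1 to 1.01 without wild-type replicate 2). Red cell and platelet markers had -1.32 (range, -1.91 without knockout replicate 1 to 0.85 without wild-type replicate 2). It was 0.41 for melanocytes and Schwann cells (range, 0.19 without knockout replicate 1 to 0.80 without wild-type replicate 2) and 0.49 for adipocytes (range, 0.20 without knockout replicate 1 to 1.68 without wild-type replicate 1).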
